A study of Mus musculus with 12 samples.

Results

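PD-1+ Tim-3- CD8 T cells that had entered a mouse melanoma were compared with CD8 T cells from the spleens of naive mice, across all 18193 genes that the array's annotation names. The comparison took every array titled as Tim-3- tumour-infiltrating lymphocytes (TIL), 3 in number, and every array titled as naive splenocytes, 5 in number, so 8 of the 12 arrays in the series. The other 4 arrays hold PD-1+ Tim-3+ TIL. They entered the estimate of the spread, the choice of each gene's probe set and the level called dim, but neither group's mean. All mice were 6 to 8 weeks old, of the strain the labels spell C57bl/c. The tumours were B16F10-GP, a skin melanoma line of mice, grown in the flank, and the TIL were taken between days 17 and 19. After collagenase and DNase digestion and a Percoll gradient they were sorted as PD-1+ cells negative for Tim-3 and for 2B4, a gate that the labels call stem-like. The naive samples are labelled CD8 T lymphocytes from spleen, and no further sort marker is named for them. Tissue, tumour, digestion and sort gate all differ between the groups and cannot be told apart. The labels do not say how many mice went into an array or whether arrays came from separate mice, so the p-values measure only the spread between these samples.

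A CD8 T cell that has not met its antigen is small and quiescent, recirculates through lymphoid organs and depends on interleukin 7. Prolonged antigen in a tumour drives such cells into exhaustion, a state with PD-1 and other inhibitory receptors on the surface and a reduced output of effector molecules. The PD-1+ Tim-3- cells are known as the self-renewing part of the exhausted pool, which gives rise to Tim-3+ cells and expands when PD-1 is blocked. The series set out to define the cells behind that expansion, and this comparison sets its candidate population against resting CD8 cells.

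Gene levels are log2 intensities, and a change is the Tim-3- TIL mean minus the naive mean on that scale, so that 1 unit is a doubling. Across genes, which do not count as replicates, r was 0.990 to 0.996 for pairs of naive arrays, 0.988 to 0.995 for pairs of Tim-3- arrays and 0.939 to 0.950 for pairs from different groups. The number of arrays limits the precision. Values come without detection calls, so a group mean below log2 5.71, the level that 40% of genes lie under, may be background. A change to or from such a level, called dim below, gives no more than a minimum size. That holds for every such change below, also where the word is not repeated. Naive replicates 1 and 2 and Tim-3- replicate 1 form a set A and the remaining arrays a set B, which the labels do not name. Within a group, the SD of log2 differences between arrays was 0.246 to 0.301 inside a set and 0.337 to 0.412 across sets, which were drawn from these same values. The 3' minus 5' signal of array control transcripts, a measure of RNA quality, averaged 0.22 ± 0.15 (SD, n = 5) in naive and 0.23 ± 0.091 (SD, n = 3) in Tim-3- arrays. Values per array are listed in the order of the replicate numbers.

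At an adjusted p below 0.05 (limma over all genes, Benjamini-Hochberg), 6252 of the 18193 genes, or 34.4%, differed between the groups. In Tim-3- TIL, 2926 genes (16.1%) were higher and 3326 (18.3%) were lower, and these shares are the background for every count of list members below. Changes of at least 2-fold made up 2183 genes (12%), with 1272 (6.99%) higher and 911 (5.01%) lower. In 6777 genes (37.3%) both means were dim. The lowest array of one group lay above the highest of the other for 6382 genes (35.1%). The median change over all genes was -0.06. Of the genes called higher, 855 had a dim naive mean, and of those called lower, 837 had a dim Tim-3- mean. Within set A 2097 genes were higher and 2274 lower, and within set B 3147 and 3285. With the sets as a block all 6252 genes kept the call and its direction, and 7319 genes were called. The split into sets was made by looking at the expression data, and a block removes the spread that guided it. The block fit therefore cannot check the calls, and its p-values tend to be too small.

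**Figure D1:**
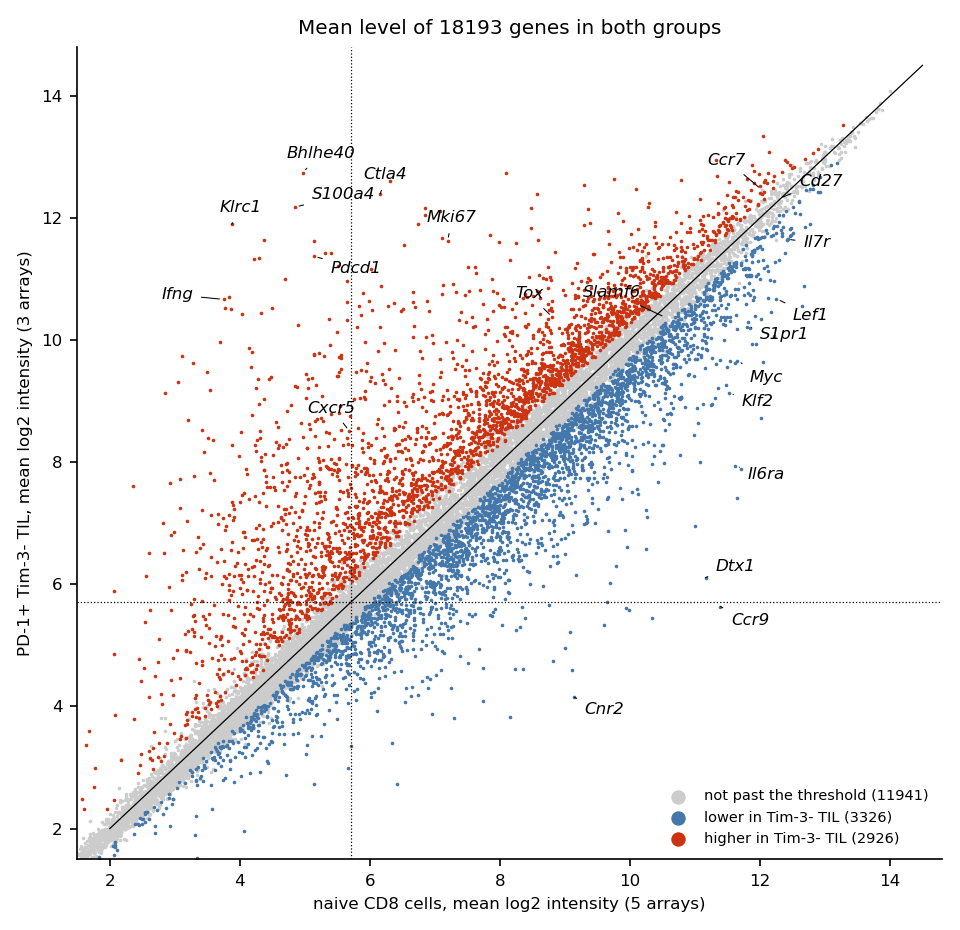
Mean log2 intensity of each gene in the 5 naive arrays (horizontal) against the 3 Tim-3- TIL arrays (vertical). Red and blue points are the 2926 higher and 3326 lower genes, grey points did not pass the threshold, the solid line marks equal levels and the dotted lines log2 5.71. Klrc1, Bhlhe40 and S100a4 lie far above the line, Ccr9, Dtx1 and Cnr2 far below, and Slamf6 and Cd27 on it.

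The genes of the sorting markers came first. Pdcd1, which encodes PD-1, stood at 5.003, 5.07, 5.68, 4.90 and 5.04 in the naive arrays and at 11.46, 11.29 and 11.37 in the Tim-3- arrays. Every naive value was dim and every Tim-3- value was high, a change of 6.24 ± 0.16 (SE; adjusted p = 6.1e-12). Havcr2, the gene of Tim-3, read 4.54, 4.69, 4.72, 4.91 and 4.31 in naive and 6.55, 7.50 and 7.20 in Tim-3- arrays. The groups did not overlap although the sort was for cells without Tim-3 protein, and Havcr2 rose by 2.45 ± 0.19 (adjusted p = 1.88e-07), with Tim-3- replicate 1 the lowest of its group. Here and below, an array of bulk RNA cannot tell fewer cells with a transcript from less of it in each cell. Cd244a, the gene of 2B4, had values of 5.77, 4.54 and 4.35 in the Tim-3- arrays against 4.16, 4.33, 3.90, 4.62 and 3.91 in naive ones. Only Tim-3- replicate 1 exceeded all naive arrays, and the change of 0.70 ± 0.32 did not pass (adjusted p = 0.11). A block for the sets gave 0.74 (adjusted p = 0.0201), but such a p-value tends to be too small, as said above for the block fit. The change was 1.52 in set A alone and 0.30 in set B alone. The CD8 chains Cd8a and Cd8b1 were among the brightest genes in both groups. Cd8a lay at 12.82 ± 0.035 (SD) in naive and 12.63 ± 0.027 in Tim-3- arrays, short of the threshold (adjusted p = 0.105) although the arrays did not overlap, and Cd8b1 fell from 12.46 ± 0.054 to 11.70 ± 0.12 (adjusted p = 3.24e-05). Cd8a passed with arrays centred on their medians (-0.26, adjusted p = 0.0297), after a further quantile normalization (-0.23, adjusted p = 0.0400) and with trended, robust moderation (adjusted p = 0.0143). Of 9 measured CD8 T cell identity genes 7 did not pass, among them Cd3e (-0.05) and Cd2 (0.10), and Cd8b1 and Cd5 (-0.37) fell.

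The 12 largest rises all started from a dim naive mean and ended between log2 9.73 and 12.74, so each is a minimum size. Klrc1, which encodes the inhibitory NK receptor NKG2A, went from 3.72, 3.76, 4.70, 3.90 and 3.30 in the naive arrays to 12.04, 11.81 and 11.84 in the Tim-3- arrays (8.02 ± 0.22, adjusted p = 1.03e-11). Bhlhe40, a transcription factor induced by T cell activation, read 4.79, 4.30, 5.65, 4.82 and 5.28 against 12.85, 12.67 and 12.70 (7.77 ± 0.23, adjusted p = 1.74e-11). For both genes the 3 Tim-3- arrays lay close together, and the naive arrays were spread more widely at low signal. S100a4 and S100a6, which encode small calcium-binding proteins, rose by 7.33 ± 0.23 and 6.48 ± 0.19. Ifng, the gene of the effector cytokine interferon gamma, rose from 3.86, 2.92, 4.83, 3.03 and 4.12 to 11.20, 10.51 and 10.29 (6.92 ± 0.36, adjusted p = 4.36e-09). The TNF family ligands Tnfsf11 (RANKL) and Tnfsf4 (OX40L) rose by 7.05 ± 0.49 and 6.64 ± 0.18. Spry2, a feedback inhibitor of receptor kinase signalling, was uneven among the Tim-3- arrays, at 11.68, 9.91 and 10.02, with replicate 1 highest. The remaining members of the group were Plek (7.12), a substrate of protein kinase C, Nrn1 (7.28) and Penk (6.88), better known from neurons for neurite growth and as the enkephalin precursor, and Perp (6.62), a target of p53.

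The largest fall was that of Ccr9, the chemokine receptor that directs lymphocytes to the small intestine. It stood at 11.38, 11.23, 11.44, 11.52 and 11.39 in naive and at 5.72, 5.23 and 5.96 in Tim-3- arrays, a change of -5.76 ± 0.15 (adjusted p = 7.22e-12). All 5 naive arrays were bright and the Tim-3- mean was dim. Dtx1, a regulator of Notch signalling, fell from 10.91, 10.90, 11.34, 11.35 and 11.31 to 5.68, 6.61 and 6.04 (-5.05 ± 0.21). Cnr2, the cannabinoid receptor of immune cells, fell from 9.14 ± 0.21 to 4.15 ± 0.15, and Nrp2, a neuropilin, from 9.12 ± 0.14 to 4.59 ± 0.36. Igfbp4, which binds insulin-like growth factors, and Slc16a5, a monocarboxylate transporter, fell by 4.32 ± 0.11 and 4.25 ± 0.10, with close Tim-3- arrays in both. H2-Ob, a chain of the class II antigen loading inhibitor, was the least even of the 12, at 6.14, 4.83 and 3.92 in the Tim-3- arrays against 9.01 ± 0.14 in naive ones. Its change was -2.74 in set A alone and -4.72 in set B alone. The others were Tmem108 (-4.90), Lypd6b (-4.42), Lrrc75b (-4.33), Atp1b1 (-4.23), a sodium pump subunit, and Xkrx (-4.08). Atp1b1 and Dtx1 kept a Tim-3- mean above the dim level, the other 10 did not.

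**Figure D2:**
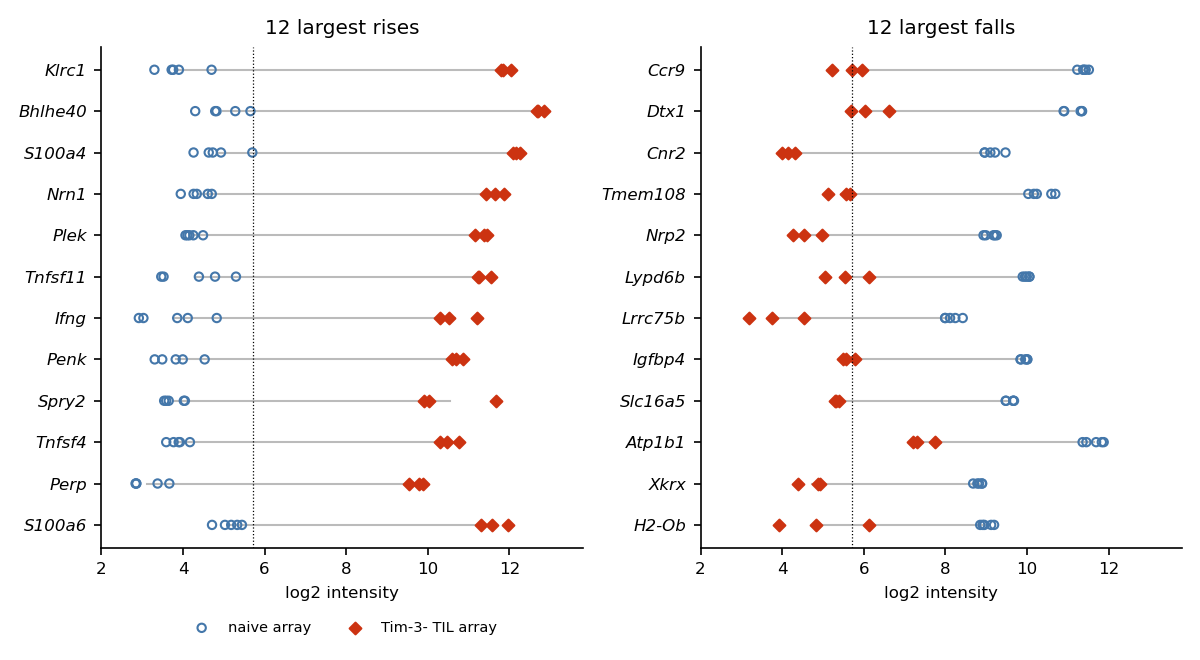
Log2 intensity in every naive (blue circles, 5) and Tim-3- TIL array (red diamonds, 3) for the 12 largest rises and the 12 largest falls, with grey lines joining the group means and a dotted line at log2 5.71. No gene shown has overlapping groups, and Spry2, Lrrc75b and H2-Ob have the widest Tim-3- spread.

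Transcription factors of the naive and stem-like state were mostly lower. Of 15 measured, 8 fell, 2 rose and 5 did not pass, with a median of -0.75. Klf2, which drives genes for leaving tissue, stood at 11.59, 11.54, 11.61, 11.39 and 11.50 in naive and at 8.62, 9.65 and 9.12 in Tim-3- arrays (-2.40 ± 0.17, adjusted p = 9.57e-08). Lef1, a partner of the Wnt pathway and a mark of naive T cells, read 12.20, 12.25, 12.16, 12.35 and 12.30 against 10.66, 10.82 and 10.55 (-1.58 ± 0.16, adjusted p = 2.49e-06). Both genes separated the groups fully, and both kept Tim-3- levels far above dim. Klf3 fell by 2.09 ± 0.23 and Id3, an inhibitor of E proteins that marks stem-like cells, by 1.45 ± 0.13. Smaller falls were those of Foxp1 (-0.88), Bach2 (-0.86), Satb1 (-0.83) and Ikzf1 (-0.75), which restrain effector differentiation or organise naive chromatin. Foxo1 (-0.28), an upstream factor of the naive program, and Ets1 (-0.15) did not pass. The genes that rose were Bcl6 and Myb, both known to maintain memory or stem-like cells. Bcl6 read 8.56, 8.53, 9.16, 8.89 and 8.84 against 10.06, 10.83 and 11.03 (1.84 ± 0.31, adjusted p = 0.00029) and Myb 8.11, 7.99, 8.998, 8.96 and 8.96 against 10.93, 11.04 and 11.23 (2.47 ± 0.34, adjusted p = 5.04e-05), with no overlap for either.

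Factors of exhaustion and effector differentiation moved the other way. Of 31 measured, 23 rose, 3 fell and 5 did not pass, with a median of 1.90. Tox, which establishes the exhausted state, read 8.98, 8.90, 8.84, 8.66 and 8.66 in naive and 11.07, 9.96 and 10.09 in Tim-3- arrays. All Tim-3- arrays were above all naive arrays, replicate 1 most of all, and the change was 1.57 ± 0.27 (adjusted p = 0.000422), 2.13 in set A alone and 1.31 in set B alone. Its relative Tox2 rose from 3.45 ± 0.19 to 8.17 ± 0.23. Zeb2, a zinc finger factor of terminal effector cells, rose by 6.27 ± 0.19 and Irf8 by 4.04 ± 0.21. The orphan nuclear receptors Nr4a1, Nr4a2 and Nr4a3, which respond to antigen receptor signals, rose by 2.91 ± 0.29, 6.29 ± 0.47 and 3.87 ± 0.20. Their neighbours in that response, Egr1 (0.14) and Egr2 (-0.66), did not pass, and Egr3 fell by 1.77 ± 0.32. Both T-box factors rose: Tbx21 (T-bet) from 6.44, 6.67, 7.73, 6.88 and 7.83 to 10.70, 10.83 and 10.76 (3.65 ± 0.26) and Eomes from 8.59, 8.46, 8.66, 8.49 and 8.83 to 10.83, 10.71 and 10.83 (2.19 ± 0.12). The naive arrays of Tbx21 were spread far more widely than its Tim-3- arrays. Prdm1 (Blimp-1) rose by 1.38 ± 0.16, Id2 by 1.33 ± 0.10, Batf by 0.99 ± 0.14, Irf4 by 2.59 ± 0.25 and Maf by 2.68 ± 0.34. Runx1 (-1.32) and Pou2af1 (-1.003) fell, and Nfatc2 (-0.08) did not pass while its paralogue Nfatc1 (1.56) rose.

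The list of inhibitory receptors, which also holds ligands and surface enzymes, leaned up. Of 18 measured, 9 rose (50%, beside 16.1% of all genes) and 4 fell (22.2%, near the 18.3% of all genes), with a median of 0.91. Ctla4, a checkpoint that competes for CD28 ligands, read 5.94, 5.84, 6.26, 6.23 and 6.55 in naive and 12.58, 12.36 and 12.26 in Tim-3- arrays (6.23 ± 0.15, adjusted p = 5.5e-12). Lag3, a checkpoint that binds class II, rose from 5.40, 4.98, 5.23, 5.27 and 5.24 to 9.93, 9.60 and 9.82 (4.56 ± 0.12, adjusted p = 7.22e-12). In both genes the gap between groups was many times the spread within them. Among the other receptors Klrg1 (1.75) and Cd160 (1.28) rose, and so did Klrc1, given above. The ligand genes Cd200 (3.10), Cd274 (1.02) and Pdcd1lg2 (4.10) rose too, and the products of Cd274 and Pdcd1lg2 bind PD-1. Entpd1 (CD39), a surface enzyme and marker of terminal exhaustion, stood at 6.13, 6.80 and 6.32 in Tim-3- against 5.51, 5.94, 5.07, 5.52 and 5.80 in naive arrays. Its rise of 0.85 ± 0.20 (adjusted p = 0.00422) left it above the dim level and did not pass within set A (0.41). The falls, all of receptors, were Lair1 (-1.27), Cd72 (-1.15), Vsir (-0.97) and Cd5 (-0.37). The lean of the list therefore rests in part on members that are not receptors. Btla, a receptor that naive cells already carry, overlapped between groups at 10.85 ± 0.12 and 10.51 ± 0.24 (-0.34 ± 0.14, adjusted p = 0.0766). It passed in 5 alternatives, among them set B alone, whose p-value tends to be too small. Another was the fit without Tim-3- replicate 1, at -0.48 (adjusted p = 0.0211).

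Costimulatory receptors and ligands rose more often, 14 of 22, with 2 falls and a median of 1.44. The TNF family ligands Tnfsf11 and Tnfsf4, given above, rose most. Tnfrsf4 (OX40) read 6.42, 6.42, 6.45, 6.36 and 6.19 in naive and 10.73, 10.41 and 10.71 in Tim-3- arrays (4.25 ± 0.11, adjusted p = 7.22e-12). Tnfrsf9 (4-1BB), 6.75, 6.86, 8.31, 8.24 and 7.94 in naive arrays, was 11.30, 11.09 and 11.19 in Tim-3- arrays (3.57 ± 0.31, adjusted p = 7.77e-07). Naive replicates 1 and 2 were the lowest for Tnfrsf9, so its change was 4.50 in set A alone and 2.98 in set B alone. Icos rose by 2.27 ± 0.14 and Cd28 by 1.15 ± 0.099, and Cd28 was already bright in naive cells. Further rises were Tnfrsf1b (2.39), Klrk1 (3.36), Cd81 (3.70), Cd70 (2.41) and Tnfrsf18 (1.62). Slamf6, a surface marker used for stem-like cells, had values of 10.57, 10.13 and 10.40 against 10.46, 10.48, 10.53, 10.64 and 10.65 in naive arrays. The groups overlapped and the change was -0.18 ± 0.18 (adjusted p = 0.475), but 1 of the 3 Slamf6 probe sets, not the one read here, was called lower. Cd27 overlapped too, at 12.28 ± 0.062 and 12.31 ± 0.078, and the 95% interval of its change ran from -0.18 to 0.24. Cd226, an activating receptor, fell by 1.56 ± 0.24 and Tnfrsf25 by 0.79 ± 0.25.

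Among cytokine receptors 12 of 26 rose and 8 fell, and the median of 0.01 stood between large changes in both directions. The interleukin 2 receptor chains Il2ra and Il2rb rose by 4.26 ± 0.26 and 1.84 ± 0.28. Il2rb was high in naive cells, at 10.23, 10.24, 11.37, 10.98 and 11.15, with replicates 3 to 5 above replicates 1 and 2. The largest falls were those of Il6ra, the interleukin 6 receptor, from 11.57, 11.60, 11.71, 11.70 and 11.51 to 7.24, 8.43 and 8.13 (-3.68 ± 0.20, adjusted p = 5.04e-09), and of Ifngr2, the signalling chain of the interferon gamma receptor, from 9.70 ± 0.084 to 6.01 ± 0.14 (adjusted p = 1.98e-10). Il6st, the shared partner of Il6ra, fell by 1.99 ± 0.11, while Ifngr1, the ligand-binding partner of Ifngr2, rose by 2.13 ± 0.19. Further rises were Il1r2 (4.66), Il18rap (3.67), Il12rb2 (3.19) and Il10ra (1.88), and Tgfbr1 (-0.98) and Tgfbr3 (-1.25) fell. Il7r, the survival receptor of naive and memory cells, read 12.46, 12.54, 12.25, 12.43 and 12.37 in naive and 11.59, 11.82 and 11.54 in Tim-3- arrays. Every Tim-3- array was below every naive array, yet the change of -0.76 ± 0.49 did not pass (adjusted p = 0.264). In the fit of the 8 arrays alone, without the Tim-3+ arrays in the spread, it passed at the same size (adjusted p = 0.000345). Il7r also passed with the most variable probe set (-1.55, adjusted p = 0.00846). Within set B, which was drawn from these same values, it was -0.67 (adjusted p = 0.00278), a p-value that tends to be too small.

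Chemokine receptors mostly rose, 8 of 15, and 1, Ccr9, fell. Cxcr5, a receptor of follicular cells and of stem-like CD8 cells, read 6.01, 5.94, 5.43, 5.02 and 6.03 in naive and 8.55, 8.60 and 8.36 in Tim-3- arrays (2.82 ± 0.23, adjusted p = 4.01e-07). Cxcr3, which follows interferon-induced chemokines into tissue, rose from 7.58, 7.55, 7.67, 7.29 and 8.05 to 10.73, 11.46 and 11.10 (3.47 ± 0.19). Neither gene overlapped between groups. Like Cxcr5, Ccr8 (5.48), Ccr6 (4.36), Ccr2 (3.40) and Cx3cr1 (3.13) rose from dim naive means. Ccr7, the lymph node homing receptor, stood at 12.59, 12.24 and 12.56 against 12.13, 12.17, 11.89, 11.99 and 11.96 in naive arrays. It was bright in both groups, and its change of 0.43 ± 0.24 did not pass (adjusted p = 0.192), but did in the fit of the 8 arrays alone (adjusted p = 0.0173). Cxcr6, a receptor of tissue-resident cells, overlapped between groups, with Tim-3- arrays at 8.74, 9.76 and 9.32 and naive arrays at 9.94, 9.88, 9.40, 9.47 and 9.26. The naive values of replicates 1 and 2 were the highest, and the change of -0.32 ± 0.21 was -1.17 within set A and 0.16 within set B.

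**Figure D3:**
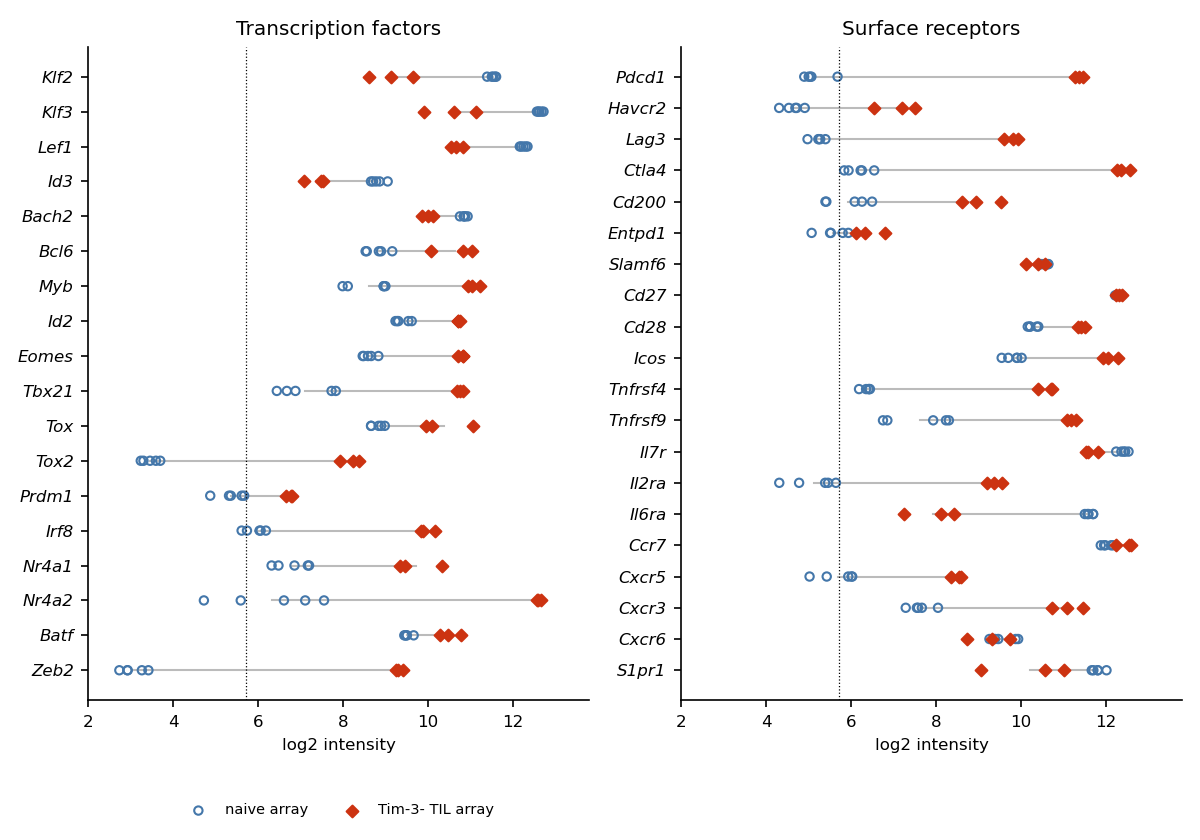
Log2 intensity in every naive (blue circles, 5) and Tim-3- TIL array (red diamonds, 3) for selected transcription factors (left) and surface receptors (right), with a dotted line at log2 5.71. Bcl6, Myb, Tbx21 and Eomes lie higher in Tim-3- arrays, Klf2, Klf3 and Lef1 lower, and Slamf6, Cd27 and Cxcr6 overlap.

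Genes of tissue exit and residency changed in several ways. S1pr1, the receptor by which lymphocytes leave tissue, read 11.71, 11.67, 11.82, 12.02 and 11.81 in naive and 9.06, 11.02 and 10.58 in Tim-3- arrays. It fell by 1.59 ± 0.39 (adjusted p = 0.00555), and replicate 1 lay well below replicates 2 and 3, so the change was -2.63 in set A alone and -1.09 in set B alone. S1pr4 (-0.90) fell with it and S1pr5 (-0.41) did not pass. Cd69, which retains cells in tissue by opposing S1pr1, rose by 0.79 ± 0.14, a call lost in set A alone (0.62). The regulators of G protein signalling Rgs1 and Rgs16 rose by 5.21 ± 0.14 and 5.33 ± 0.18, and Rgs2 by 2.88 ± 0.14. Cd44, an adhesion receptor of cells that have met antigen, read 6.23, 6.23, 6.49, 5.76 and 6.14 against 10.60, 11.07 and 10.98 (4.72 ± 0.15, adjusted p = 3.7e-11), a complete separation. The integrin chains Itgb1 (3.70), Itga1 (2.80) and Itgav (2.29) rose, while Itgae (CD103), a chain of resident cells that naive CD8 cells of mice also carry, fell by 2.42 ± 0.41 and its partner Itgb7 by 0.94 ± 0.12. In all, 12 of 24 genes of this list rose and 7 fell.

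Cytotoxic genes rose in 18 of 25 cases and fell in 2, with a median of 0.74. Gzmb, the gene of granzyme B, read 5.41, 5.18, 6.53, 5.93 and 5.97 in naive and 9.62, 10.90 and 10.11 in Tim-3- arrays (4.41 ± 0.29, adjusted p = 3.82e-08). Gzmk, a granzyme typical of memory and early exhausted cells, rose from 5.46, 5.48, 5.48, 5.31 and 5.81 to 10.93, 11.46 and 11.27 (5.71 ± 0.20, adjusted p = 6.62e-11). Gzmk was the more even gene among the Tim-3- arrays, and Gzmb was lowest there in replicate 1. From dim naive means, Gzma rose by 3.52 ± 0.35, Fasl by 6.35 ± 0.23 and Stx11, which serves granule fusion, by 6.02 ± 0.20. The protease inhibitors Serpinb9 (2.54), Serpinb6b (2.81) and Serpinb6a (2.32), which guard a killer cell from its own granzymes, rose as well. Prf1, the gene of the pore protein perforin, was not among the rises. Its naive arrays lay at 10.15, 10.13, 9.66, 9.86 and 9.67 and its Tim-3- arrays at 9.54, 9.26 and 9.09, a fall of 0.60 ± 0.17 (adjusted p = 0.0162). It no longer passed when Tim-3- replicate 2 (-0.58, adjusted p = 0.0527) or replicate 3 (-0.49, adjusted p = 0.0877) was left out. Ctsc, which activates granzymes, also fell (-0.47), and Gzmf (-0.16) did not pass.

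Of 23 cytokine and chemokine genes 14 rose and 3 fell. Besides Ifng, Ccl5 rose by 4.64 ± 0.18 and Ccl3 by 3.62 ± 0.45, both chemokines that draw T cells and myeloid cells. Xcl1, which draws cross-presenting dendritic cells, read 5.82, 5.75, 8.01, 8.09 and 7.88 in naive and 12.22, 11.30 and 11.50 in Tim-3- arrays. Naive replicates 3 to 5 were about 2 units above replicates 1 and 2, so its rise of 4.56 ± 0.52 was 6.44 in set A alone and 3.40 in set B alone. Cxcl10 rose from 5.65 ± 0.31 to 10.62 ± 0.067. Il2, the growth factor of T cells, rose by 2.26 ± 0.27, and Csf1 (2.34), Csf2 (2.81), Il10 (1.39), Tgfb1 (1.39) and Tnf (0.69) rose. Ccl4 rose by 1.36 ± 0.46 (adjusted p = 0.0337), a call that was lost without naive replicate 2, 4 or 5 or any 1 Tim-3- array, and was weakest without Tim-3- replicate 1 (1.09, adjusted p = 0.132). Il16 (-1.15) and Ltb (-0.92), which resting lymphocytes carry, fell.

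Genes of antigen receptor signalling leaned down and genes that restrain it leaned up. Of 23 proximal genes 11 fell and 4 rose, with a median of -0.35. The kinases Tec, Txk and Prkcq fell by 2.001 ± 0.17, 0.71 ± 0.10 and 1.22 ± 0.20, and the exchange factors Rasgrp1 and Vav1 by 0.89 ± 0.14 and 0.81 ± 0.09. Vav1 lost the call with the most variable probe set (-0.53, adjusted p = 0.0853). Orai1, the calcium channel of store-operated entry, rose from 8.17, 8.26, 8.31, 7.94 and 8.02 to 9.39, 9.51 and 9.69 (1.39 ± 0.12), and its sensor Stim1 fell by 0.53 ± 0.12. Of 38 negative regulators 22 rose and 10 fell, with a median of 0.82. Dusp4, a phosphatase of MAP kinases, read 5.67, 5.81, 6.39, 6.11 and 6.10 in naive and 11.26, 10.99 and 11.25 in Tim-3- arrays (5.15 ± 0.16, adjusted p = 3.41e-11). Tnfaip3 (A20), a brake on NF-kappaB, rose by 3.25 ± 0.11 from an already high naive level of 9.29 ± 0.19. Dusp5 (3.78), Cish (2.93), Spry1 (2.89), Cblb (1.53) and Zc3h12a (2.42) rose too, the last of them coding for an enzyme that degrades cytokine messages. Lower were Pag1 (-2.01), Dgka (-0.98) and Ptpn6 (-0.92), an adaptor, a kinase and a phosphatase that also restrain the receptor.

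Among survival genes, GIMAP GTPases, which keep resting lymphocytes alive, fell in 5 of 8 cases and rose in none (Gimap9 -1.39, Gimap8 -1.18, Gimap5 -0.84). The change of Gimap8 was -0.72 in set A alone. For the BCL-2 family 4 of 14 rose and 4 fell. Pmaip1 (NOXA), a promoter of cell death, rose from 5.39, 5.02, 5.51, 5.86 and 5.67 to 10.11, 10.02 and 10.25 (4.63 ± 0.16, adjusted p = 6.91e-11). The protective Bcl2l1 rose by 1.66 ± 0.22, 1.09 in set A alone. Bcl2 itself fell by 0.46 ± 0.14 (adjusted p = 0.0162) and Bcl2l11 (BIM), which opposes it, rose by 0.48 ± 0.14 (adjusted p = 0.0163). Each of these calls was lost without 1 array, Bcl2 without Tim-3- replicate 3 (-0.38, adjusted p = 0.0911) and Bcl2l11 without Tim-3- replicate 1 (0.43, adjusted p = 0.0606). Set A alone gave -0.26 for Bcl2. Neither set alone called Bcl2l11, at 0.59 in set A and 0.42 in set B (adjusted p = 0.122).

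Cell cycle genes gave the largest share of rises. Of 49 measured mitosis genes 45 rose and 2 fell, with a median of 2.35, 2.86 in set A alone and 2.21 in set B alone. Ccnb2, a B-type cyclin, read 4.56, 4.20, 4.73, 4.09 and 4.84 in naive and 9.52, 9.04 and 9.63 in Tim-3- arrays (4.91 ± 0.20, adjusted p = 3.07e-10). Mki67, the gene of the proliferation antigen Ki-67, read 7.06, 7.65, 7.11, 6.998 and 7.17 against 12.02, 11.18 and 11.67 (4.42 ± 0.19, adjusted p = 5.86e-10). In both genes all Tim-3- arrays were above all naive arrays, and Tim-3- replicate 2 was the lowest of its group. Other rises were Nusap1 (4.62), Bub1 (4.19), Ccna2 (4.06), Birc5 (4.03), Top2a (3.74) and Cdk1 (2.26), for a spindle protein, a checkpoint kinase, a cyclin, survivin, a topoisomerase and the mitotic kinase. Kif23 (-0.57) and Smc4 (-0.47) fell, and Racgap1 (-0.0029) and Hmmr (0.68) did not pass. For DNA replication and nucleotide synthesis 34 of 44 rose and none fell, with a median of 1.03. Cdc6, which loads the replicative helicase, rose from 3.30, 3.50, 4.08, 2.92 and 3.77 to 8.29, 7.97 and 8.90 (4.87 ± 0.26, adjusted p = 4.59e-09), and Rrm2, which makes deoxynucleotides, from 6.66 ± 0.12 to 10.79 ± 0.57. The helicase subunits Mcm2, Mcm3, Mcm4, Mcm5, Mcm6 and Mcm7 rose by less, from 0.40 for Mcm2 to 1.61 for Mcm5.

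**Figure D4:**
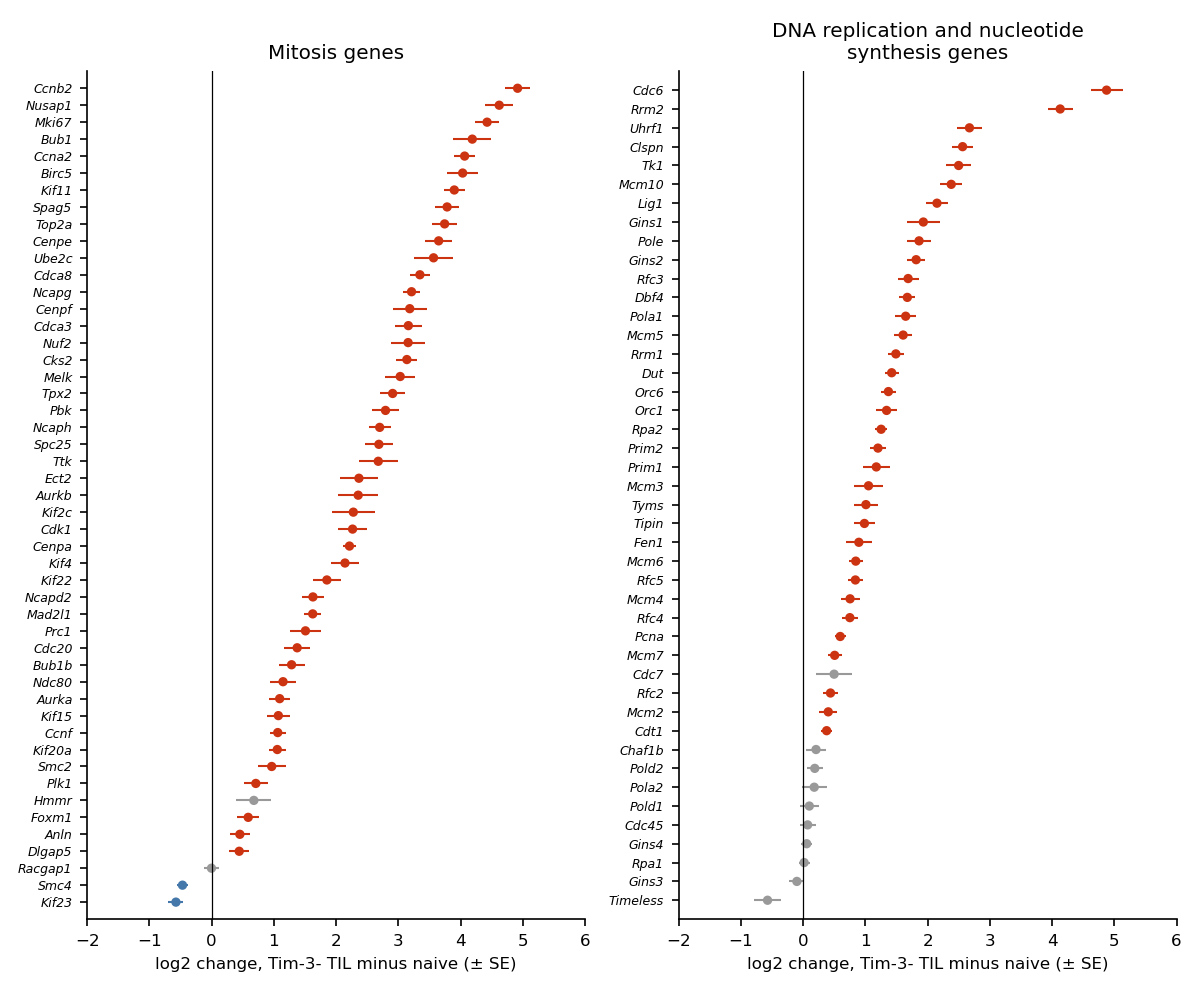
Log2 change from naive cells to Tim-3- TIL (point) with its SE (line) for every measured mitosis gene (left) and DNA replication gene (right). Red points rose, blue points fell and grey points did not pass the threshold: 45 of 49 and 34 of 44 genes are red.

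Promoters of both cell cycle lists were read in RefSeq windows of build GRCm38.p6, from 250 bases before each gene's start to 50 after. Mitotic genes are known to carry a cell cycle homology region, here searched as TTTGAA, together with CCAAT boxes, searched as CCAAT, and replication genes to carry E2F sites, searched as TTTCCCGC or TTTGGCGC, each on both strands. TTTGAA stood in 32 of 41 mitosis genes with a window (78%) and in 20.2% of all 27025 genes. CCAAT stood in 31 of 41 (75.6%) against 41.1%. In the replication list, TTTCCCGC stood in 6 of 36 (16.7% against 1.24%) and TTTGGCGC in 5 of 36 (13.9% against 0.585%). The shares describe letters, not bound sites. Within the mitosis list the genes with TTTGAA had a median change of 2.18 and those without it 3.16. Kif23, which fell, holds TTTGAA too. The stretches from 200 bases before the start to 30 after are printed for Ccnb2 and Mki67, which show both motifs of the mitosis list, and for Cdc6, which shows an E2F site, with motif matches in capitals. Ccnb2 lies at chr9:70421525-70421754 and Mki67 at chr7:135716350-135716579, both on the minus strand, and Cdc6 at chr11:98907951-98908180 on the plus strand.
Ccnb2: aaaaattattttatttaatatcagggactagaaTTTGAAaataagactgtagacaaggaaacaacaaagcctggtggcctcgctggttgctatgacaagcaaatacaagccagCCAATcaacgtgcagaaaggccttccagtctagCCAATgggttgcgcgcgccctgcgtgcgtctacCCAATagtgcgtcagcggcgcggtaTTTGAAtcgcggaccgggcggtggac
Mki67: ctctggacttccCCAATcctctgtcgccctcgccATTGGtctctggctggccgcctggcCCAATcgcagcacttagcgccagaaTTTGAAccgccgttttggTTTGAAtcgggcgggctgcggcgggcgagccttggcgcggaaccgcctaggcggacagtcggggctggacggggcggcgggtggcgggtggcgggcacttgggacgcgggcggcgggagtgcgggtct
Cdc6: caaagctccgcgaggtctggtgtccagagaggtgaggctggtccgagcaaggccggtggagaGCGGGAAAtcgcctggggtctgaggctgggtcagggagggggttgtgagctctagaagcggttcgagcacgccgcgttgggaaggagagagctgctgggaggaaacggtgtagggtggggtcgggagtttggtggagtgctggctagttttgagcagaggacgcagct

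Regulators of the first cell cycle phase were mixed, with 14 rises and 8 falls among 28 genes. Myc, the growth factor response gene, read 11.70, 11.63, 11.69, 11.69 and 11.56 in naive and 10.34, 9.24 and 9.40 in Tim-3- arrays. It fell by 1.99 ± 0.32 (adjusted p = 0.000233) while the mitosis list rose, with Tim-3- replicate 1 the least reduced and a change of -1.33 in set A alone. Ccnd2 (-0.42) and Ccnd3 (-0.82), D-type cyclins of lymphocytes, fell, and Ccne2 (1.30), Cdk6 (1.40) and the E2F genes E2f1 (0.80), E2f2 (1.19) and E2f3 (0.91) rose. The inhibitors Cdkn1a (p21) and Cdkn3 rose by 1.38 ± 0.15 and 2.52 ± 0.22, while Cdkn1b (p27, 0.09) did not pass. Among chromatin enzymes, Ezh2, the Polycomb methyltransferase of dividing cells, rose from 7.70, 7.91, 8.33, 8.38 and 8.62 to 10.40, 9.89 and 10.06 (1.93 ± 0.19), and its relative Ezh1 fell by 0.88 ± 0.15. Another Ezh1 probe set read higher in Tim-3- arrays (0.74). Tet1, which oxidises methylated DNA, fell from 6.92 ± 0.14 to a dim 4.45 ± 0.36, and Tet3 fell by 1.02 ± 0.22 while Tet2 rose by 0.38 ± 0.099. Dnmt1 (-0.08) and Dnmt3a (0.18) did not pass.

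Calcium- and membrane-binding proteins of the S100, annexin and galectin families rose in 12 of 18 cases. Anxa2 read 6.50, 6.68, 7.01, 6.98 and 6.57 in naive and 11.95, 11.84 and 11.92 in Tim-3- arrays (5.16 ± 0.12, adjusted p = 5.5e-12). Lgals3 (galectin 3) rose by 4.92 ± 0.18, Capg by 3.12 ± 0.19, Anxa1 by 2.29 ± 0.26 and Lgals1 by 1.30 ± 0.13. Lgals9, a ligand of Tim-3, was the single fall (-0.51).

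Metabolic lists differed in how much they moved. Glycolysis genes rose in 12 of 17 cases with none lower. Hk2, the first enzyme of the pathway, read 6.58, 6.82, 6.95, 6.86 and 6.65 in naive and 9.998, 9.71 and 9.77 in Tim-3- arrays (3.05 ± 0.12, adjusted p = 1.82e-10). Tpi1 rose by 2.36 ± 0.18, the lactate exporter Slc16a3 by 2.03 ± 0.16 and Ldha by 0.47 ± 0.11, while the glucose transporter Slc2a1 rose by 0.64 ± 0.17 and Slc2a3 (-0.27) did not pass. Respiratory chain genes moved little, as 8 of 34 rose, none by 2-fold, led by Ndufb8 (0.72) and Uqcrfs1 (0.51), and the median was 0.10. Uqcrfs1 did not pass within set A (0.44). Of 12 amino acid transporters 8 rose and none fell, with Slc3a2, the shared heavy chain of several carriers, up from 9.67, 9.88, 10.21, 10.07 and 10.27 to 11.46, 11.95 and 11.82 (1.72 ± 0.15). Cholesterol synthesis genes rose in 7 of 19 cases (36.8%) and fell in 5 (26.3%), beside 16.1% and 18.3% of all genes. Cyp51 (1.68) and Insig1 (1.35) were among the rises and Fdps (-0.69) and Srebf2 (-0.54) among the falls.

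Hypoxia genes rose in 9 of 22 cases (40.9%, beside 16.1% of all genes) and fell in 5 (22.7%, near the 18.3% of all genes). Pdk1, which turns pyruvate away from mitochondria and is induced by low oxygen, went down, from 11.24, 11.28, 11.18, 11.23 and 11.30 in naive to 8.95, 8.94 and 8.95 in Tim-3- arrays (-2.30 ± 0.092, adjusted p = 3.06e-10). Ddit4 (-1.20) fell with it. Egln3, an oxygen sensor, rose by 2.02 ± 0.23, Adm (1.996), Ndrg1 (1.83) and Plin2 (1.40) rose, and Vegfa (-0.10) and Car9 (0.36) did not pass. In the list of unfolded protein and integrated stress responses 14 of 28 rose and 4 fell. Asns, which makes asparagine and answers to amino acid shortage, read 3.73, 3.92, 3.79, 2.36 and 3.88 against 7.54, 7.66 and 8.29 (4.29 ± 0.31, adjusted p = 1.01e-07). Xbp1 rose by 1.96 ± 0.27, Atf3 by 2.47 ± 0.27 and the chaperone Hspa5 (BiP) by 0.76 ± 0.097, while Ddit3 (CHOP), which promotes death under stress, fell by 0.57 ± 0.17.

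**Figure D5:**
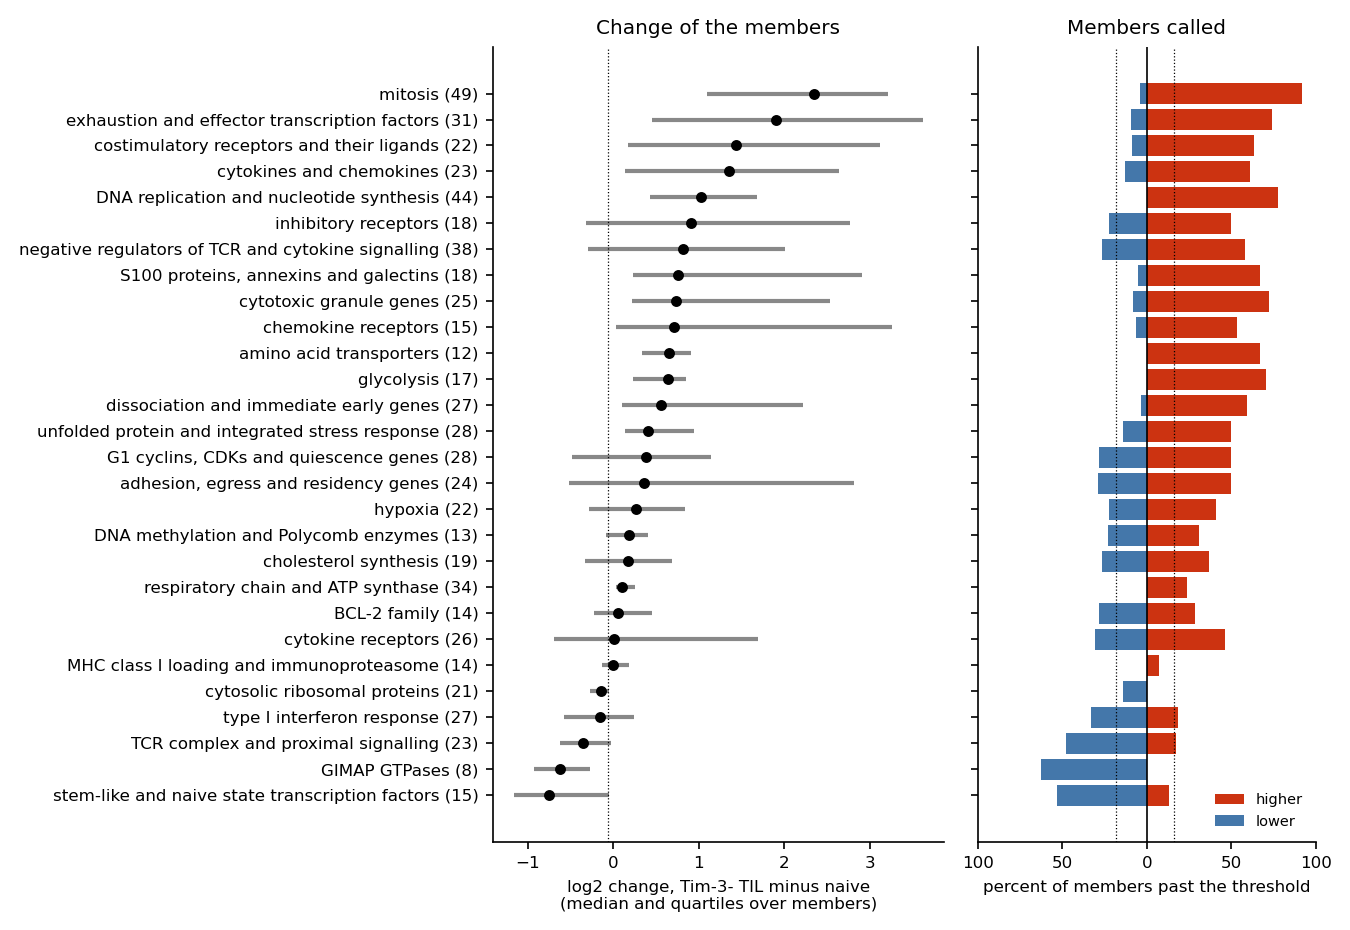
For each list, with the number of measured members in brackets, the median (dot) and quartiles (bar) of the members' log2 change (left) and the percent of members higher or lower in Tim-3- TIL (right). Dotted lines give the same over all 18193 genes: a median of -0.06, 16.1% higher and 18.3% lower. Mitosis has the highest median, 2.35, and naive state factors the lowest, -0.75.

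Interferon response genes leaned down, as 9 of 27 fell (33.3%, beside 18.3% of all genes). Another 5 rose (18.5%, near the 16.1% of all genes) and 13 did not pass. The median was -0.16, beside -0.06 over all genes. Usp18, which dampens interferon receptor signalling, read 8.21, 8.53, 7.96, 7.71 and 7.73 in naive and 5.16, 5.51 and 5.36 in Tim-3- arrays (-2.69 ± 0.20, adjusted p = 1.55e-07). Ifit2, Oasl2 and Oasl1, antiviral effectors, fell by 1.20 ± 0.13, 1.27 ± 0.21 and 1.41 ± 0.17. The rises were Isg20 (1.09), Mx1 (0.99), Rsad2 (0.84), Ifih1 (0.57) and Oas1a (0.51), and Irf7 (0.27), Stat2 (-0.11) and Ifit3 (-0.0033) did not pass. The core of the interferon response element, searched as GAAA, any 2 bases and GAAA on either strand, stood in the promoter windows of 10 of 18 listed genes (55.6%) and of 3.99% of all genes. Ifit1 and Rsad2 are printed because both hold the element and moved in opposite directions, -0.63 and 0.84. Those examples were chosen after their values were seen. Matches are in capitals, over the same stretch as above. Ifit1 lies at chr19:34640689-34640918 on the plus strand and Rsad2 at chr12:26456423-26456652 on the minus strand.
Ifit1: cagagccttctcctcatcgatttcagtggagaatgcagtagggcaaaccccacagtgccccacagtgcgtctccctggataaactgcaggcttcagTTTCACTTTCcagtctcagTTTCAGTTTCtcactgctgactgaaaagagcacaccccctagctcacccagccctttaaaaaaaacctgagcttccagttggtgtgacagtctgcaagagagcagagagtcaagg
Rsad2: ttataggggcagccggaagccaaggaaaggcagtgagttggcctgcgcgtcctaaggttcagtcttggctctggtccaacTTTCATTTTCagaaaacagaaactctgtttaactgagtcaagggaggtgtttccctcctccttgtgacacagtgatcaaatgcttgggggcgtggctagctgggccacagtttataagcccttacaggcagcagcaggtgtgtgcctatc

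Antigen presentation by class I hardly moved. Of 14 genes of class I loading and the immunoproteasome 1 rose, Calr (0.37), none fell and 13 did not pass, among them B2m (0.06) and Tap1 (0.19). Calr lost its call within set A, which holds 1 Tim-3- array, although its change there was 0.40. Of 21 cytosolic ribosomal protein genes 3 fell and none rose, with a median of -0.14 beside -0.06 over all genes. The falls of Rps19 (-0.66), Rpl8 (-0.29) and Rps6 (-0.28) each lost the call when naive replicate 1 or 2 or Tim-3- replicate 2 or 3 was left out, and Rps6 also without naive replicate 3, 4 or 5 and without Tim-3+ replicate 2, 3 or 4. Without Tim-3- replicate 2 the values were -0.54, -0.28 and -0.25 (adjusted p = 0.116, 0.0925 and 0.164). Rpl8 passed in neither set alone, and Rps6 did not in set A. Another Rps6 probe set read 1.81 higher in Tim-3- arrays.

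Stress from tissue digestion can itself induce genes, so genes known from cell dissociation and from the immediate early response were read in both groups. Of 27 genes 16 rose and 1 fell, with a median of 0.56. Hspa1a, a heat shock protein, stood at 2.51, 3.005, 2.998, 2.67 and 3.09 in naive and at 9.47, 9.09 and 8.83 in Tim-3- arrays (6.28 ± 0.23, adjusted p = 1.29e-10). Fosb, a subunit of AP-1, read 3.40, 3.27, 4.47, 6.08 and 5.29 against 10.39, 10.51 and 10.67 (6.02 ± 0.50), and Klf4 rose by 4.67 ± 0.39. For each of these the groups lay far apart, and the naive arrays of Fosb and Klf4 were higher in replicates 3 to 5. Fos (1.98), Dusp1 (2.54) and Junb (1.10) rose, whereas Jun (0.43), Egr1 (0.14), Zfp36 (-0.19), Dnajb1 (-0.04) and Hsph1 (-0.03) did not pass. Summed over the list, the intensity was 57681 to 63680 in naive and 79422 to 81534 in Tim-3- arrays. Nr4a1, Atf3, Nfkbia, Socs3 and Btg2 belong to this list and to others above. The digestion was applied to tumours, and its part in these changes was not tested.

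Markers of other cells were read the same way, and their part in the results above was not tested. Of 15 melanoma markers 3 rose (20%, beside 16.1% of all genes) and 2 fell (13.3%, beside 18.3% of all genes). In this list 9 markers were dim in both groups. Tyrp1 and Dct, pigment enzymes, rose from dim means to 6.15 ± 1.03 and 6.33 ± 0.77, and Kit, a growth factor receptor that lymphocytes can also carry, from 3.42 ± 0.39 to 8.52 ± 0.29. Pmel (-0.88) and Trpm1 (-1.49) fell, with a Trpm1 change of -0.39 in set A alone and -2.12 in set B alone. Mlana (0.17), Tyr (0.12) and Mitf (0.15) did not pass. Summed intensity over that list was 1096 to 1299 in naive and 1137 to 1524 in Tim-3- arrays. Of 21 macrophage markers 13 were dim in both groups. Cd68 (1.45) and Ccr2 (3.40) rose and Fcgr3 (-0.44), an Fc receptor, fell, while Csf1r (-0.23), Adgre1 (-0.03) and C1qa (-0.28) did not pass. The sums were 718 to 807 and 983 to 1133.

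B cell markers changed in both directions, 21.4% higher and 28.6% lower, beside 16.1% and 18.3% of all genes. Of 14 measured, Cd79b (-2.52), Ighm (-1.44), Cr2 (-1.10) and Cd79a (-0.96) fell and Cd74 (2.80), H2-Ab1 (1.09) and Cd22 (0.69) rose, Cd74 by 1.74 in set A alone. Ighm stood at 11.65, 11.55, 11.45, 11.23 and 11.33 in the naive arrays and at 9.94, 9.95 and 10.11 in Tim-3- arrays. The sums were 3383 to 4522 in naive and 2190 to 3647 in Tim-3- arrays. The list of CD4 and regulatory T cell markers rose in 7 of 10 cases and fell in 1. The largest changes were those of Il2ra (4.26), Ikzf2 (Helios, 3.64) and Cxcl13 (2.61), and Ikzf4 rose by 1.42. The defining Cd4 and Foxp3 rose by 0.83 ± 0.13 and 0.85 ± 0.12, from 6.51 ± 0.20 to 7.34 ± 0.18 and from 7.09 ± 0.18 to 7.94 ± 0.089. Sums over the list were 834 to 1020 and 3981 to 4406. Such sums weigh bright members most, and Ikzf2 (7.28 ± 0.43 to 10.92 ± 0.10) was the brightest in Tim-3- arrays. Ikzf2 is also in the list of exhaustion and effector factors, and Il2ra in that of cytokine receptors. Among NK cell markers 3 of 10 rose, Eomes, Styk1 (1.23) and Klra7 (0.46), Cd7 (-1.45) and Tyrobp (-0.73) fell, and Ncr1 (-0.08), a receptor that defines these cells, did not pass. Sums were 1811 to 2160 in naive and 2448 to 2547 in Tim-3- arrays. Eomes, the brightest of these markers in Tim-3- arrays at 10.79 ± 0.068, is also in the list of exhaustion and effector factors.

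Dendritic cell markers showed 1 rise, Itgax (1.96), and 2 falls among 12, with sums of 616 to 731 and 631 to 764. Fscn1 (-0.31, adjusted p = 0.0471) was one of the falls, lost without naive replicate 1, 2 or 3, any Tim-3- array or any Tim-3+ array (-0.22, adjusted p = 0.233 without Tim-3- replicate 3) and in either set alone, and Zbtb46 (-0.32) did not pass. For both, another probe set read far higher in Tim-3- arrays, by 3.51 ± 0.38 (SE; adjusted p = 8.72e-06 over all probe sets) for Fscn1 and by 4.42 ± 0.31 (adjusted p = 1.37e-07) for Zbtb46, from dim naive means, so the direction of these genes depends on the probe set. Neutrophil markers showed 1 fall among 9, Camp (-0.31), and 8 were dim in both groups, with sums of 243 to 359 and 240 to 260. Of 16 fibroblast and endothelial markers Pecam1 (-1.60), which naive T cells carry, and Acta2 (-0.49) fell and none rose, with sums of 1319 to 1552 and 798 to 833. Epcam (0.69) was the 1 rise among 9 keratinocyte markers, whose sums were 513 to 565 and 585 to 643. Its call was lost in set A alone (0.58). No erythroid or innate-like T cell marker passed, of 5 and 3 measured, and 1 of 7 platelet markers did, Pf4 (-0.35).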

How the data were processed

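Gene expression of sorted CD8 T cells was measured with Affymetrix mouse arrays, each holding 1 sample. Per the submitters' processing notes, RMA from the affy package made the values; the sources used here name no versions. Each probe set has a deposited intensity on the linear scale, with array medians between 58.7 and 63.0, and their log2 was taken here. Of 45101 probe sets 64 were array controls. The platform annotation gives 34945 probe sets 1 gene, 932 several genes and 9160 no gene. Each of 18193 genes was read from the probe set, among those naming only that gene, whose mean over the 12 arrays was highest, and 9010 genes had several.

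limma 3.58.1 (R 4.3.3) fitted the 3 group means over the 12 arrays, and the contrast of Tim-3- TIL minus naive was tested two-sided with Benjamini-Hochberg adjustment over all genes, at a threshold of 0.05. Python 3.11.15 with numpy 2.4.6, pandas 2.3.3 and matplotlib 3.10.9 did the rest. In simulated data for these 18193 genes, 50 genes were changed at each size. The fit recovered 20% of changes of 0.5 log2, 96% of 1 and 100% of 2, with 5.39% false calls. Far more genes, 34.4%, were called in the data, where the threshold is therefore less strict. The recovered shares do not carry over to the data.

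The 42 gene lists hold 871 members; 800 were measured, the rest are not analysed here. The members and lists were chosen with earlier results of these data known, so lists are described by counts and medians with no test. The text names the sort markers, the 12 genes that rose most and the 12 that fell most among called genes with non-overlapping arrays (without antigen receptor segments), up to 4 called members of a state list and 3 of a process list by adjusted p, the 2 brightest in Tim-3- TIL of each list of other cells, and 52 fixed genes, of which 48 were measured. This rule picked 174 genes. Other list members were named after their values were seen. Same-numbered arrays are not known to be paired. Alternatives were the value per gene, normalization, a dim filter, moderation, weights, the arrays in the fit, the replicate number and the sets of arrays as blocks, thresholds, and leaving out each array.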

Additional observations from a re-analysis of the deposited data

Results flagged for a closer look

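Among the 5 naive arrays, 13 of 216 values tested had 1 array far from the other 4, by a gap over 0.71 of the whole range (Dixon's test). Chance alone gives about 1 in 20. No array gathered them, with 1 in replicate 1, 4 in replicate 2, 4 in replicate 3, 3 in replicate 4 and 1 in replicate 5. Pdcd1 stood at 5.683 in naive replicate 3, above the others at 4.898 to 5.067. Cd8a stood at 12.76 in naive replicate 3, below the others at 12.82 to 12.84. Ccl5 stood at 7.418 in naive replicate 4, below the others at 8.23 to 8.354. Ccr8 stood at 2.772 in naive replicate 1, below the others at 3.231 to 3.365. Bik stood at 6.289 in naive replicate 3, above the others at 5.98 to 6.056. Mki67 stood at 7.647 in naive replicate 2, above the others at 6.998 to 7.166. Tet1 stood at 6.683 in naive replicate 2, below the others at 6.938 to 7.017. Asns stood at 2.362 in naive replicate 4, below the others at 3.725 to 3.925. Csf3r stood at 5.929 in naive replicate 2, above the others at 5.191 to 5.386. Cd163l1 stood at 6.212 in naive replicate 5, above the others at 5.844 to 5.939. Batf stood at 9.663 in naive replicate 3, above the others at 9.443 to 9.503. Btla stood at 11.05 in naive replicate 4, above the others at 10.77 to 10.85. The mean level of the cytosolic ribosomal protein genes was 12.29 in naive replicate 2, above the others at 12.2 to 12.22. Groups of 3 arrays, as for Tim-3- TIL, were not tested.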

How the results depend on the processing

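The number of genes called stayed within 1.5 times the 6252 above under every other alternative run, from 4371 within set A to 7319 with the sets as a block. The exceptions are changes of rule. Of those, a minimum of 2-fold gave 2183 (1272 higher, 911 lower) and testing all probe sets 14962 (6788 higher, 8174 lower). Leaving out each array gave 5136 to 6235 calls (2441 to 2957 higher, 2695 to 3307 lower). Centring each array on its median gave 2593 higher and 4359 lower. Of 154 named genes called, 137 kept the call in every alternative run, and of 20 not called 11 passed in at least 1. Calls in the other direction came only with other probe sets: Cycs was -0.88 with the most variable probe set, and with the mean over probe sets and the most variable one Rps6 was 0.76 and 1.81, Zbtb46 1.04 and 4.42, and Fscn1 0.96 and 3.51. The cause was not tested.

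Medians of state and process lists that moved by more than the replicate spread are these. With the mean over probe sets they were 1.74 (exhaustion factors), 1.21 (costimulatory genes), 0.18 (cytokine receptors), -0.44 (TCR signalling), 0.73 (negative regulators), 0.79 (S100 and annexins), 1.62 (mitosis), 0.21 (G1 genes), 0.84 (glycolysis) and 0.55 (stress responses). Within set A they were 2.13 (exhaustion factors), 0.64 (inhibitory receptors), 0.98 (cytokines), 0.16 (cytokine receptors), -0.43 (TCR signalling), -0.049 (BCL-2), 0.71 (S100 and annexins), 0.21 (G1 genes), -0.035 (cholesterol) and 0.72 (dissociation genes). Within set B they were 1.77 (exhaustion factors), 1.03 (cytokines), 0.17 (cytokine receptors), 0.72 (negative regulators) and 0.038 (chromatin enzymes). Without dim genes they were 1.62 (costimulatory genes), 2.82 (chemokine receptors), 0.79 (adhesion and egress) and 0.56 (S100 and annexins). With the most variable probe set they were 1.00 (cytotoxic genes), 0.35 (cytokine receptors), -0.45 (TCR signalling), 1.01 (negative regulators), -0.76 (GIMAP), -0.033 (BCL-2), 1.13 (S100 and annexins), 1.32 (DNA replication), 0.58 (G1 genes), 0.67 (stress responses) and 0.68 (dissociation genes). With array weights they were 0.082 (cytokine receptors), 0.75 (negative regulators) and 0.055 (chromatin enzymes). With arrays centred on their medians they were -0.064 (cytokine receptors), 0.74 (negative regulators), 0.68 (S100 and annexins), -0.084 (MHC class I), 0.027 (respiratory chain) and -0.21 (ribosomal proteins). After a further quantile normalization they were 0.76 (negative regulators) and 0.71 (S100 and annexins). Leaving out each array, the medians that moved ranged over -0.81 to -0.63 (naive state factors), 0.74 to 0.98 (inhibitory receptors), 1.09 to 1.41 (cytokines), 0.0021 to 0.11 (cytokine receptors), 0.72 to 0.85 (negative regulators), 0.035 to 0.23 (chromatin enzymes), 0.55 to 0.70 (glycolysis), 0.057 to 0.37 (cholesterol) and 0.055 to 0.47 (hypoxia). The cause was not tested.

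The replicate number as a block gave 6415 calls (3022 higher, 3393 lower), 5715 of them shared with the 6252, and moved the cytokine receptor median to 0.092. Deviations from the group means correlated at 0.225, -0.15 and 0.144 for the same-numbered arrays 1, 2 and 3 of both groups. Pairs 1 and 3 each lie within a set and pair 2 across sets. Naive replicate 2 with Tim-3- replicate 1, of the same set, gave 0.235. Naive replicate 1 with Tim-3- replicate 2, across sets, gave -0.125. The correlations therefore cannot show whether the number is a pairing. With this block Bcl2 (-0.39, adjusted p = 0.0569), Ccl4 (1.14, adjusted p = 0.0776) and Rps6 (-0.32, adjusted p = 0.0571) lost their calls. With 3 and 5 arrays most changes of 0.5 log2 were missed in the simulation, where few genes changed, and dim genes have no reliable size.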

Other observations

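Gene families outside the lists were read by the start of their symbols, over all measured members and after values had been seen, so they are described without a test, beside 16.1% of all genes higher and 18.3% lower. Of Zfp genes, which encode mostly zinc finger DNA-binding proteins, 25 of 336 (7.44%) rose and 148 (44%) fell, with a median of -0.36. Of killer cell lectin-like receptors 8 of 18 (44.4%) rose and 0 (0%) fell. Those that rose include Klrc1, Klrc2 (4.48), Klre1 (3.60), Klrb1b (2.68) and Klrg1 (1.75). Klrd1, the partner chain of NKG2A, stood at 11.64 ± 0.11 in naive and 11.76 ± 0.27 in Tim-3- arrays and did not pass (0.12 ± 0.12, adjusted p = 0.505). Of serpins 10 of 40 (25%) rose and 4 (10%) fell, with Serpinb1a (1.80) and Serpinb9b (2.39) among the rises. Of semaphorins and plexins 5 of 30 (16.7%) rose and 6 (20%) fell, and the rises include Sema4c (6.39 ± 0.17), Sema6d (3.28 ± 0.34) and Plxnc1 (2.06 ± 0.18). Of protein tyrosine phosphatases of the Ptpn and Ptpr families 10 of 35 (28.6%) rose and 7 (20%) fell. Of Rgs genes 4 of 21 (19%) rose and 4 (19%) fell.

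Of 3565 called genes with several probe sets, 165 had another probe set called in the opposite direction. Among the 10092 probe sets that name no gene or several, 2724 were called, and these are not interpreted here.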
